A study of Danio rerio with 24 samples.

Results

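A list of 10 hypothalamic neuropeptide genes of social behaviour and feeding was drawn up by zebrafish symbol (oxt, avp, npy, agrp, hcrt, galn, trh, pmch, gnrh3 and sst1.1), and these were looked up in the deposited count table. The rule found 9 of the 10 listed genes among 37241 gene identifiers. Most of these carried the symbol itself, some in capitals (NPY, HCRT, TRH and PMCH), and galn was found as GAL once its final letter was dropped. No identifier carried the symbol sst1.1. An identifier named SST, a somatostatin gene that cannot be tied to sst1.1 by name, is therefore given separately and is not counted as a member. All 9 members had enough reads to be tested, so no member was lost to the filter on low counts.

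The libraries described here were poly(A) RNA-seq of whole adult zebrafish brains from wild-type animals (wt) and 4 double-mutant neurexin lines, with 3 libraries of each of the 5 genotypes. Neurexins are presynaptic adhesion proteins, and each line carried CRISPR/Cas9 mutations in both zebrafish copies of 1 neurexin. Whole loci were deleted in nrxn2a_full:nrxn2b_full and nrxn3a_full:nrxn3b_full. The last exon, which encodes the transmembrane region, was targeted in nrxn2a_tmr:nrxn2b_tmr and nrxn3a_tmr:nrxn3b_tmr. The lines are called nrxn2 full, nrxn2 tmr, nrxn3 full and nrxn3 tmr below. All 4 lines and wt shared the AB background and were untreated adults, and the sources used here give no sex, no age and no number of brains per library. The mutants were homozygous, and the study limited how many successive generations of homozygous inbreeding they came from. A line and wt may still differ at other loci, and the labels do not say whether libraries of a group came from separate clutches. The p-values below therefore set a difference against the spread between libraries, estimated with all 24 libraries of the series. They do not separate the mutations from other differences between a line and wt.

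Neuropeptides are cut from larger precursors, stored in dense-core granules and released from small groups of neurons onto receptors that are mostly coupled to G proteins. In fish the preoptic area makes oxytocin and vasotocin, which act on social behaviour and water balance, and the hypothalamus makes peptides that raise or lower feeding and wakefulness. Whole-brain RNA pools these few neurons with all other cells, and in such a pool fewer peptide neurons and less RNA per neuron cannot be told apart.

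Levels are counts divided by DESeq2 size factors (normalised counts), which are not per length and are compared only within a gene. Total counts ran from 28512102 to 39342435 per library, and every pair of libraries of a genotype differed by more than counting noise. Neurexin counts were lower in the full deletions, to a varying degree: in nrxn3 full nrxn3b averaged 1.66 normalised counts against 3894 in wt and nrxn3a 1437 against 12707 (11.3% of wt), and in nrxn2 full nrxn2a averaged 351 against 4053 (8.65%) and nrxn2b 2046 against 6763 (30.3%). Neuron markers were present throughout, with sums over 9 genes of 330759 to 378149. The counts of genes called depended on single libraries: between nrxn2 full and wt 2282 genes were called, 4558 without nrxn2 full library 1, 1509 without library 2 and 1171 without library 3. Counts of pituitary, retina and pineal marker genes also varied between libraries. Whether this reflects the amount of tissue or the expression of these genes was not tested. Of 14 pituitary markers, 3 to 6 stayed under 1 normalised count in every library of a genotype, and their sum ran from 393 to 1007, with POMC, which the hypothalamus also makes, at 132 to 533. The growth hormone gene gh1 stood at no more than 1.03 in any of these 15 libraries. The summed retina markers (14 genes) spanned 464 to 70635 and the summed pineal markers (7 genes) spanned 199 to 4015 across libraries, with every gene of both lists above 1 normalised count in at least 1 library of each genotype. The plot of marker sums shows that the retina and pineal sums varied within genotypes as well as between them.

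**Figure D1:**
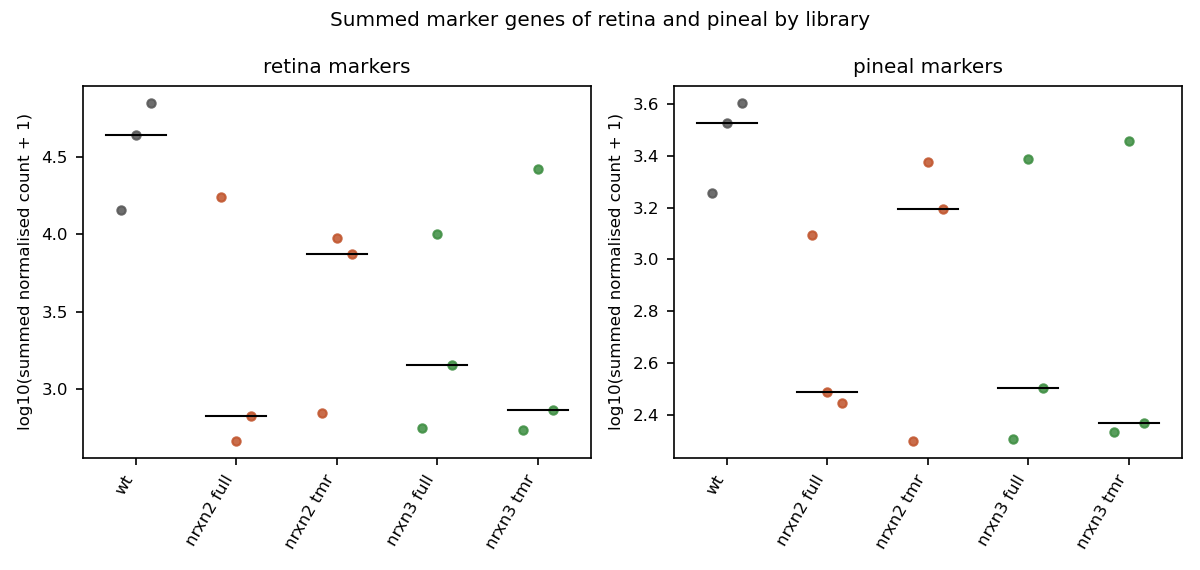
Summed normalised counts of 14 retina and 7 pineal marker genes (y axis, log10 of the sum + 1) in each library by genotype (x axis), with a line at the median of 3 libraries. The wt libraries, at 14435 to 70635 for the retina, lay above most mutant libraries, while nrxn3 tmr ranged from 546 to 26627.

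Each line was compared with wt in 1 edgeR fit of all 24 libraries of the series, and a gene was called when its Benjamini-Hochberg adjusted p over the 23641 genes tested was under 0.05. The 4 comparisons share the same 3 wt libraries. Of the 9 members, 2 were called in nrxn2 tmr, where 8.48% of all genes were called, and 1 in nrxn3 full (8.13% of all genes). In nrxn2 full (9.65% of all genes) and nrxn3 tmr (7.32% of all genes) edgeR and the alternative DESeq2 test both called 0 members, and 0 had an unadjusted p under 0.05. Over the 36 pairs of a member and a line, 3 were called (8.33%), and the same comparisons called 8.40% of all genes and lines. As a group the members were thus called about as often as any gene, and the results below concern single genes.

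Oxytocin (oxt, ENSDARG00000042845), the nonapeptide of affiliation made by preoptic neurons, was lower in nrxn2 tmr than in wt. The 3 wt libraries held 19006, 10638 and 26274 normalised counts, and their mean was 18639 ± 7825 (SD, n = 3). The level in nrxn2 tmr was 3681, 4573 and 11007, so that 2 libraries lay far below wt and 1 lay just inside the wt range. Against wt, oxt fell in nrxn2 tmr by 1.54 on the log2 scale (SE 0.41, adjusted p = 0.0259), to 34.4% of wt.

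In the other 3 lines oxt was not called. The nrxn3 full libraries, at 8975, 9154 and 7723, were all below wt, with a log2 difference of -1.11 (SE 0.41, adjusted p = 0.107). The nrxn2 full libraries held 15103, 22135 and 15933 and the nrxn3 tmr libraries 16456, 20376 and 27641, which is within or just above the range of wt. From low to high the genotype means ran nrxn2 tmr, nrxn3 full, nrxn2 full, wt and nrxn3 tmr. The ranges of 3 of the 4 neighbouring pairs in that order overlapped, the exception being nrxn3 full and nrxn2 full, and the ends of the order differed 3.35-fold (6420 against 21491).

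The oxt call rested on 3 libraries a group and could be lost with 1 library. It ended without wt library 1 (adjusted p = 0.0564), wt library 5 (0.103), nrxn2 tmr library 1 (0.114) or nrxn2 tmr library 2 (0.109). When any 1 library was left out, the log2 difference stayed between -2.18 and -1.21. With only the 6 libraries of the line and wt in the fit, the adjusted p was 0.225.

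Marker RNA of other tissues differed beside oxt. The retina sum was 14435 to 70635 in wt and 699.9 to 9495 in nrxn2 tmr, and the sum of 5 blood markers was 17698 to 27673 in wt and 7281 to 16070 in nrxn2 tmr, neither with overlap. The pineal sums (1807 to 4015 in wt, 199 to 2364 in nrxn2 tmr) and the pituitary sums (577 to 774 in wt, 435 to 661 in nrxn2 tmr) overlapped. Of the 32 genes of these 4 lists that were tested, edgeR called 0 in nrxn2 tmr, with 5 retina genes at an unadjusted p under 0.05. Over the 24 libraries oxt had a Pearson r on the log2 scale of 0.46 with the pituitary sum, 0.35 with the blood sum, -0.05 with the retina sum and -0.10 with the pineal sum. Once each genotype's mean was taken off, these were 0.29, 0.12, -0.01 and 0.01 in the same order. The part of these tissues in the oxt difference was not tested.

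**Figure D2:**
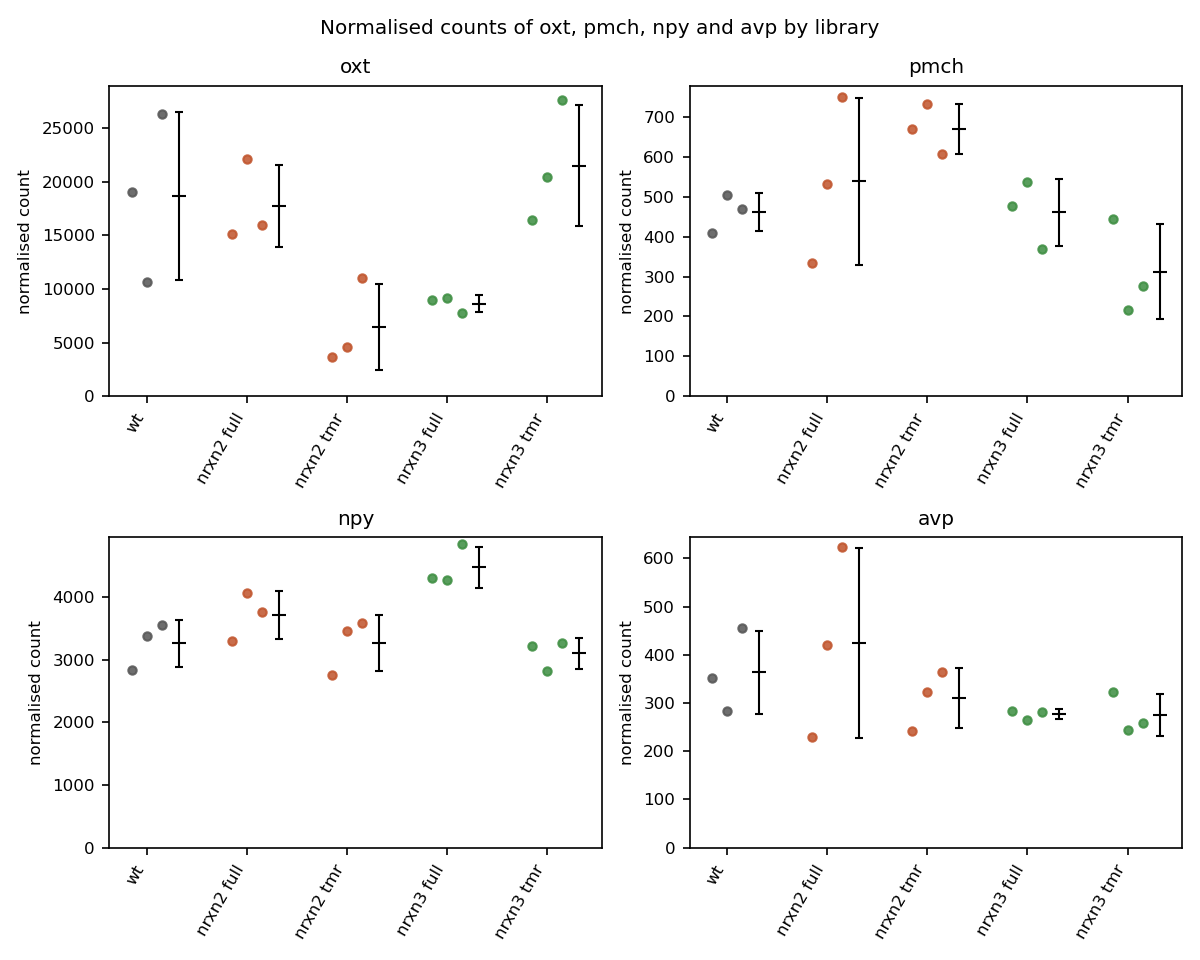
Normalised counts (y axis, from 0) of oxt, pmch, npy and avp in each library by genotype (x axis), with the mean ± SD of 3 libraries beside the points. All nrxn3 full libraries lie below the lowest wt library for oxt, all nrxn2 tmr libraries lie above the highest wt library for pmch, and all nrxn3 full libraries lie above the highest wt library for npy.

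Vasotocin (avp, ENSDARG00000058567), the sister peptide of oxytocin in the preoptic area, was not called in any of these comparisons. The wt libraries held 353, 283 and 455 normalised counts. The nrxn3 full libraries, at 283, 265 and 281, and the nrxn3 tmr libraries, at 324, 243 and 258, lay low in the wt range or below it (log2 differences -0.40 and -0.40, adjusted p = 0.520 and 0.521). The nrxn2 full libraries were the most spread, at 230.3, 421 and 624. Across the 24 libraries oxt and avp had a Pearson r of 0.53 on the log2 scale, and of 0.51 once each genotype's mean was taken off.

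Melanin-concentrating hormone (pmch, ENSDARG00000073959), a feeding peptide of the hypothalamus that also lightens the skin of fish, was not called in any of these comparisons, under any alternative. The wt libraries held 411, 506 and 470.1 normalised counts (mean 462 ± 48.2, SD, n = 3). In the nrxn2 tmr libraries pmch stood at 671, 734 and 608, all above wt, with a log2 difference of 0.54 (SE 0.28, adjusted p = 0.278). In nrxn3 tmr it stood at 445, 215 and 277, so that 2 libraries lay below wt (log2 difference -0.57, SE 0.29, adjusted p = 0.274).

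The nrxn3 full libraries, at 478, 536 and 370.2, averaged 99.9% of wt. The genotype means ran from 312 in nrxn3 tmr to 671 in nrxn2 tmr, 2.15-fold apart, and the ranges of all 4 neighbouring pairs in the order overlapped. Over the 24 libraries pmch had an r of 0.15 with the neuron marker sum and 0.21 with the pituitary sum. With the retina, pineal and blood sums r was -0.35, -0.30 and 0.08. Once each genotype's mean was taken off, these were 0.72, 0.57, -0.53, -0.38 and 0.05 in the same order. The latter values describe libraries within genotypes only. The part of these markers in the differences between lines was not tested.

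Neuropeptide Y (npy, ENSDARG00000036222), an abundant peptide that promotes feeding, was the member called as higher in a line. It stood at 2832, 3385 and 3561 normalised counts in wt and at 4301, 4274 and 4846 in nrxn3 full, with no overlap. It rose in nrxn3 full by 0.46 on the log2 scale (SE 0.14, adjusted p = 0.0467), or 1.37-fold. The nrxn3 tmr libraries, at 3227, 2815 and 3264, overlapped wt, with library 4 just below the lowest wt library (log2 difference -0.07, adjusted p = 0.840).

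This npy call was close to the threshold. It ended without wt library 1 (adjusted p = 0.166) or 3 (0.0865), without nrxn3 full library 2 (0.0852), 3 (0.0832) or 4 (0.148), and without nrxn2 full library 3 (0.0527), nrxn2 tmr library 2 (0.0559) or 3 (0.0504) or nrxn3 tmr library 3 (0.0556) or 5 (0.0534), which enter only through the shared spread and the adjustment. The same held for 5 other libraries of the series (adjusted p = 0.0526 to 0.0559). It also ended with no filter on low counts (adjusted p = 0.0559) and with only the 6 libraries of the line and wt (0.0568). The log2 difference stayed between 0.36 and 0.52 when any 1 library was left out.

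Agouti-related peptide (agrp, ENSDARG00000069089), which promotes feeding by blocking melanocortin receptors, was rare in whole brain. The wt libraries held 5.08, 31.7 and 13.2 normalised counts and the nrxn2 tmr libraries 0, 0.86 and 1.01. The nrxn2 tmr libraries together held 2 reads of agrp against 46 in wt, which is 3.92% of wt after scaling, with an exact 95% counting interval of 0.461% to 14.99% that covers counting error only. The edgeR fit called agrp lower in nrxn2 tmr (adjusted p = 0.00780) and its p stayed under 0.05 when any 1 library was left out (0.00424 to 0.0404), with a log2 difference of -4.91 to -3.64. With only the 6 libraries of the line and wt, agrp failed the filter on low counts and was not tested. Among these only wt libraries 3 and 5 reached 10 reads, so agrp entered the main fit through libraries of other lines. The wt level leaned on library 3, which held 27 of the 46 wt reads, and without it nrxn2 tmr stood at 6.71% of wt. In nrxn2 full agrp stood at 4.64, 6.73 and 4.81, and was not called (log2 difference -1.59, adjusted p = 0.195). In nrxn3 full and nrxn3 tmr the libraries spanned 3.10 to 26.0, overlapping wt.

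Gonadotropin-releasing hormone 3 (gnrh3, ENSDARG00000056214), which drives the reproductive axis of zebrafish, had the largest ratio between genotype means of the members (31.9-fold). In wt it held 33.5, 418 and 76.2 normalised counts. In nrxn3 full library 3 held 16.5 and libraries 2 and 4 held no read, so that all 3 lay below the lowest wt library. The nrxn3 tmr libraries held 192, 126 and 197, and the nrxn2 lines spanned 57.6 to 203. The summed reads of nrxn3 full, 16 against 470 in wt, came to 3.39% of wt after scaling (exact 95% counting interval 1.92% to 5.56%). This interval covers counting error only and leaves out the spread between libraries. Library 3 held 356 of the 470 wt reads, and without it nrxn3 full stood at 9.86% of wt.

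With the large spread of gnrh3 in wt, edgeR did not call this difference, at -4.96 on the log2 scale (SE 1.56, adjusted p = 0.0596). The DESeq2 alternative called it (adjusted p = 0.00392). The edgeR call was gained without nrxn3 full library 3 (adjusted p = 0.0428) and without either of 2 other libraries of the series (0.0368 and 0.0456). Without wt library 3 the log2 difference was -3.29 (adjusted p = 0.2500), and without nrxn3 full library 2 or 4 the adjusted p was 0.181 or 0.165. The genes whose levels followed gnrh3 most closely were looked at next. These were LTBP1, a binding protein of latent TGF-β (r = 0.91), si:ch73-288o11.5 (r = 0.90) and SLC8A1, a sodium-calcium exchanger (r = 0.88), each over 24 libraries on the log2 scale and given as a description.

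SLC8A1 (ENSDARG00000043406) stood at 33.2, 45.5 and 45.5 normalised counts in nrxn3 full and at 1048 to 1586 in the libraries of wt and the other 3 lines. LTBP1 stood at 12.7, 25.8 and 23.8 in nrxn3 full and at 112.7 to 183 in those libraries, and si:ch73-288o11.5 at 87.9, 75.5 and 43.3 against 224 to 529. The 3 nrxn3 full libraries were the lowest of these 15 libraries in each of the 3 genes, as in gnrh3. Because the genes were picked for following gnrh3 over libraries that include nrxn3 full, this follows in part from the choice. In the GRCz12tu annotation of RefSeq, gnrh3 lies on the same chromosome as nrxn3a, the gene deleted in nrxn3 full, with 34 protein-coding genes between them. The genes named si:ch73-288o11.5, slc8a1b and ltbp1 lie on that chromosome too, with 11, 56 and 63 protein-coding genes between each and gnrh3, whereas slc8a1a, the other gene that SLC8A1 could stand for, does not.

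After this was seen, the 25 protein-coding genes on either side of each member were counted. Of the 50 around gnrh3, 24 matched a tested gene by symbol, and 13 of these 24 (54.2%) were called in nrxn3 full, all lower, where 8.13% of all genes were called. In nrxn3 tmr edgeR called 0 of the 24, with 3 at an unadjusted p under 0.05. Between nrxn3 full and nrxn3 tmr 10 of the 24 (41.7%, against 4.77% of all genes) were called, all lower in nrxn3 full. Whether gnrh3 is low in nrxn3 full for a reason that it shares with its neighbours was not tested. Of the other members agrp shares a chromosome with nrxn2b, with 844 protein-coding genes between them. Of the 29 tested neighbours of agrp 4 were called in nrxn2 tmr (13.8%, 3 higher and 1 lower, against 8.48% of all genes). The same neighbours gave 6.9% in nrxn2 full, 20.7% in nrxn3 full and 13.8% in nrxn3 tmr (9.65%, 8.13% and 7.32% of all genes). Around oxt 25% of 20 tested neighbours were called in nrxn2 tmr (2 higher and 3 lower). In nrxn2 full it was 10%, in nrxn3 full 0% and in nrxn3 tmr 15%.

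**Figure D3:**
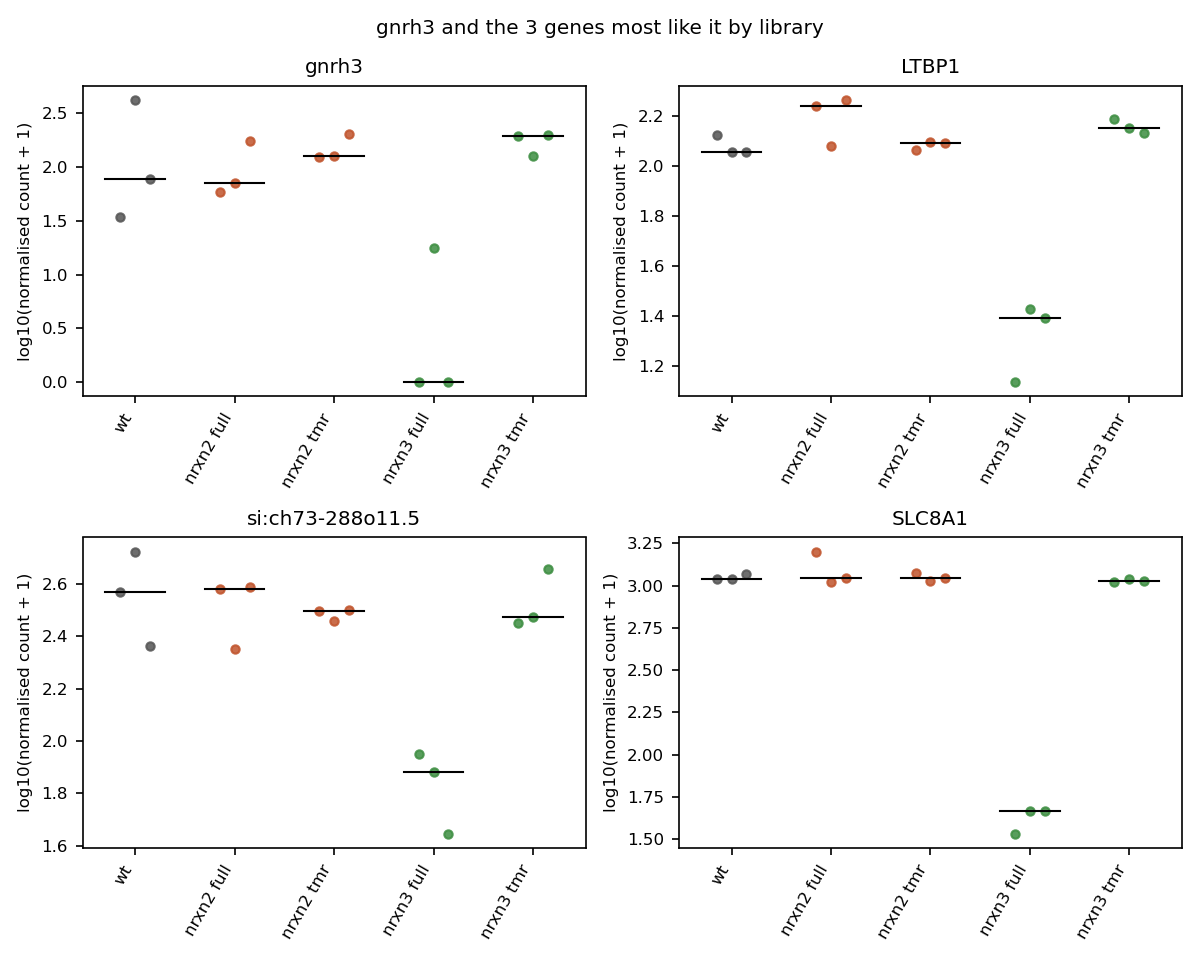
Levels (y axis, log10 of the normalised count + 1) of gnrh3, LTBP1, si:ch73-288o11.5 and SLC8A1 in each library by genotype (x axis), with a line at the median of 3 libraries. The nrxn3 full libraries are the lowest in all 4 genes, and hold no read of gnrh3 apart from 16.5 in library 3.

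Galanin (galn, ENSDARG00000091377), a peptide of the preoptic area linked with sleep and parental behaviour in vertebrates, varied widely within every genotype and was not called in any of these comparisons. Its levels in wt were 1635, 769 and 1751 normalised counts and in nrxn2 tmr 472, 658 and 2033, and the highest library of a genotype exceeded the lowest by 2.28-fold in wt to 4.30-fold in nrxn2 tmr. The genotype means lay between 1054 and 1385, with adjusted p values against wt of 0.803 to 0.999. In 4 of the 5 genotypes the library numbered 3 was the lowest in galn, and in nrxn2 tmr it was the highest. In 4 of the 5 genotypes the same library was highest in galn and in oxt, and the deviations of the 2 genes from their genotype means had an r of 0.67 over the 24 libraries. In nrxn2 tmr this was library 3, while libraries 1 and 2 were low in both genes. Whether the oxt difference of nrxn2 tmr goes with this division of libraries was not tested.

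The genes most like galn were si:ch211-131k2.2 (r = 0.95), KCNJ10, a potassium channel of glia (r = 0.88), and DIO2, the deiodinase that activates thyroid hormone (r = 0.86). In nrxn2 tmr KCNJ10 stood at 1989, 2747 and 6370 normalised counts beside the galn levels above, and in nrxn3 full at 4448, 2645 and 5054 beside 1471, 613 and 1606. High and low libraries of the 2 genes were the same ones in these genotypes. In nrxn3 tmr, by contrast, KCNJ10 was highest in library 4 (2697, 7097 and 5289 in libraries 3, 4 and 5), and galn was highest in library 5 (707, 856 and 1645). In wt and nrxn2 full the highest library also differed between the genes, while library 3 was the lowest in both. The labels give no sex, clutch or hour of dissection for the libraries, so these could not be compared with this division.

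**Figure D4:**
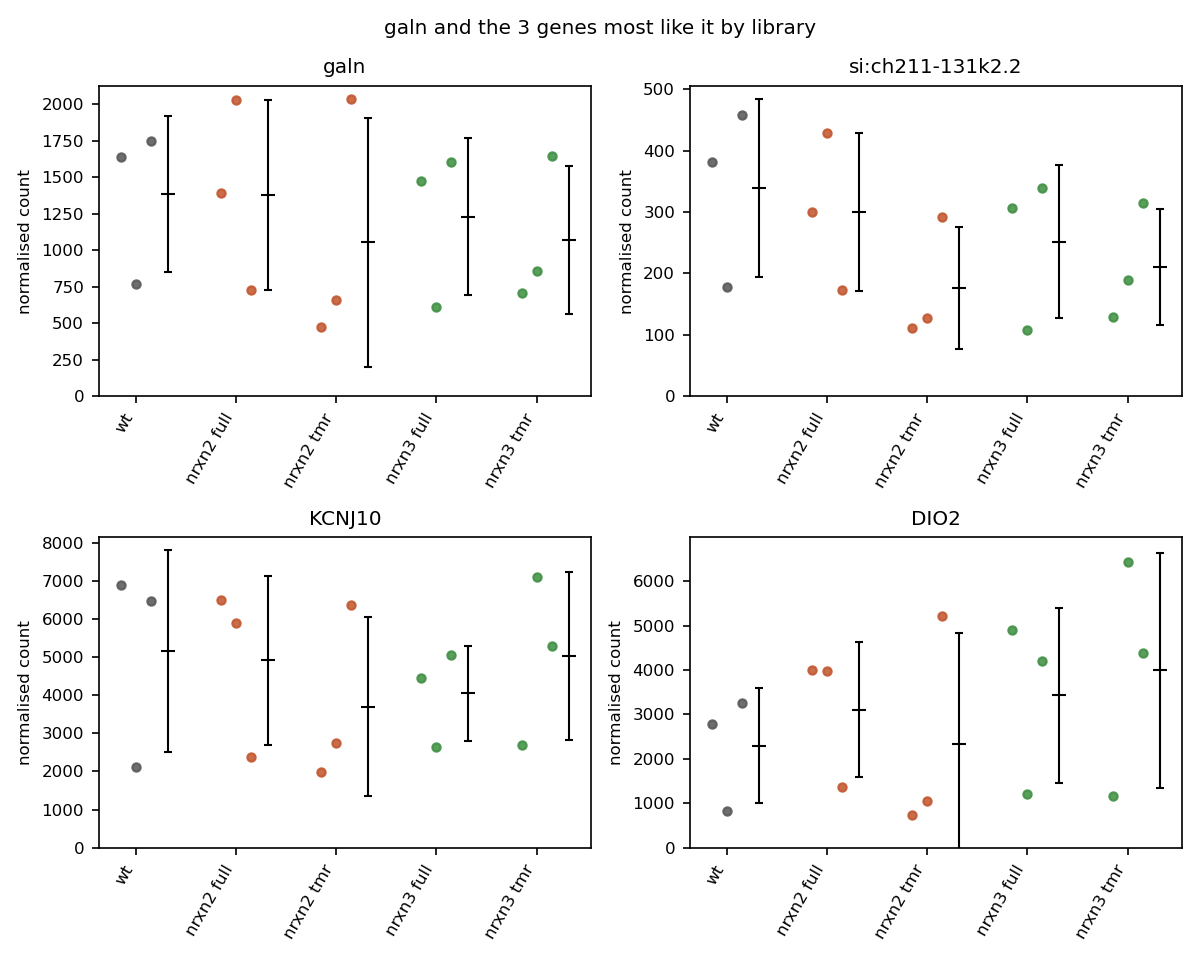
Normalised counts (y axis, from 0) of galn and the 3 genes most like it in each library by genotype (x axis), with the mean ± SD of 3 libraries beside the points (the bar of nrxn2 tmr is cut at 0 in DIO2). Each genotype holds high and low libraries of galn, from 472 to 2033 over all, and the lowest galn library of each genotype is also the lowest in KCNJ10 and DIO2, while the highest is not always the same.

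Thyrotropin-releasing hormone (trh, ENSDARG00000006868), the releasing peptide of the thyroid axis, had the smallest ratio between genotype means of the members (1.24-fold). It held 3120, 3856 and 3410 normalised counts in wt, and means of the 4 lines lay between 80.7% and 96.0% of wt with adjusted p values of 0.201 to 0.879. The libraries of nrxn2 full (2697 to 2844) did not overlap wt. None of these differences was called, in the main fit or under any alternative. The gene most like trh over the 24 libraries was scg2b, a granin of dense-core granules (r = 0.82).

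Hypocretin (hcrt, ENSDARG00000070932), the peptide of wakefulness, was a rare transcript with 15.2, 30.5 and 25.4 normalised counts in wt and 14.7 to 43.2 in the lines. The means of the 4 lines were above wt, up to 36.3 in nrxn2 tmr, where the 3 libraries held 39.4, 31.1 and 38.4 (log2 difference 0.61, SE 0.34, adjusted p = 0.310). At 68 to 116 reads per genotype a difference of this size was not detectable against the spread, and hcrt was not called under any alternative. SST (ENSDARG00000040799), a somatostatin gene, held 2941 to 3896 in wt and 2450.0 to 3498 in the lines, with its lowest mean of 2686 in nrxn2 tmr. The nrxn2 tmr libraries, at 2478 to 2878, all lay below wt (log2 difference -0.35, SE 0.15, edgeR adjusted p = 0.153). SST was not called by edgeR in any of these comparisons.

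**Figure D5:**
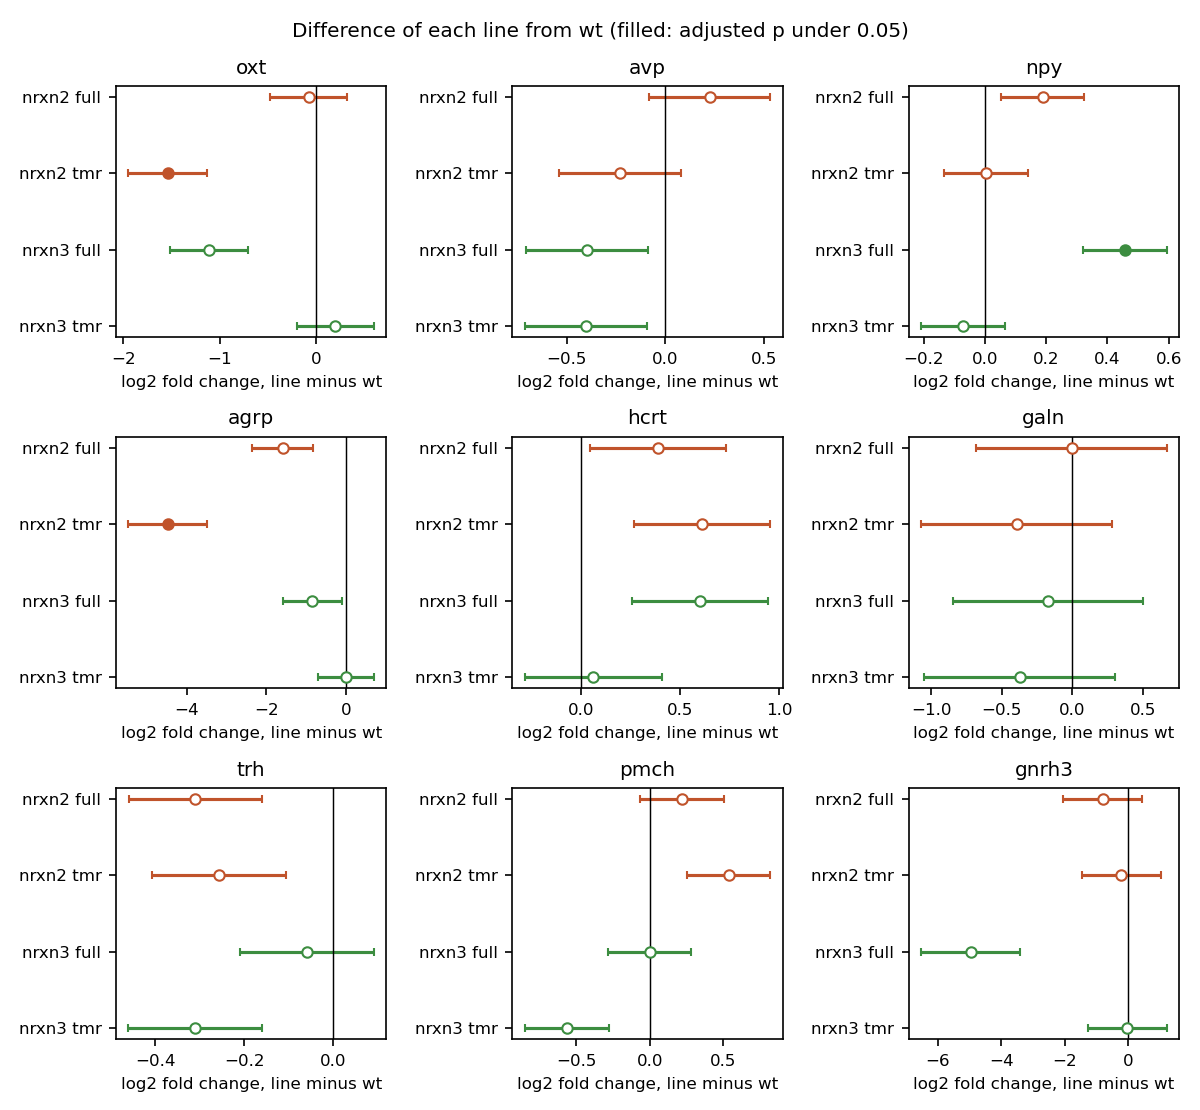
Log2 fold change of each line against wt (x axis, points) with its standard error (bars) for the 9 members, by line (y axis). Filled points had an adjusted p under 0.05: oxt and agrp in nrxn2 tmr and npy in nrxn3 full.

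Full deletions were then compared with tmr mutants of the same gene pair, a comparison of 2 kinds of allele that does not use wt. For nrxn2, 1 of 9 members was called where 11.9% of all genes were called (2804 genes, against 5045 without nrxn2 full library 1 and 1416 without library 3). This was oxt, which was higher in nrxn2 full than in nrxn2 tmr by 1.47 on the log2 scale (SE 0.41, adjusted p = 0.0276), or 2.76-fold, with no overlap of the libraries (15103 to 22135 against 3681 to 11007). The call ended without nrxn2 full library 2 (adjusted p = 0.0993) or 3 (0.0579) and without nrxn2 tmr library 1 (0.115) or 2 (0.0991). Without nrxn2 full library 1 it held (adjusted p = 0.0204). In the same comparison agrp was higher in nrxn2 full, with no overlap (4.64 to 6.73 against 0 to 1.01 normalised counts). It rested on 17 against 2 reads and was not called by edgeR (log2 difference 2.89, SE 1.04, adjusted p = 0.0775).

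For nrxn3, 1 of 9 members was called where 4.77% of all genes were called (1127 genes, against 655 without nrxn3 full library 2). This was npy, higher in nrxn3 full than in nrxn3 tmr by 0.53 on the log2 scale (SE 0.14, adjusted p = 0.0314), or 1.44-fold, and the libraries did not overlap (4274 to 4846 against 2815 to 3264). The call ended without any 1 of these 6 libraries: nrxn3 full 2 (adjusted p = 0.0659), 3 (0.0608) or 4 (0.117) and nrxn3 tmr 3 (0.0668), 4 (0.130) or 5 (0.0551). In the same comparison oxt was lower in nrxn3 full, with no overlap (7723 to 9154 against 16456 to 27641), and was not called (log2 difference -1.32, adjusted p = 0.0770). The DESeq2 alternative called it (adjusted p = 0.0269), as edgeR did without nrxn2 tmr library 3 (0.0352). DESeq2 also called gnrh3 lower in nrxn3 full than in nrxn3 tmr (adjusted p = 0.00573), which edgeR did not (log2 difference -4.93, adjusted p = 0.0843).

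Receptors for these peptides were looked at next. Of 45 symbols listed, 37 identifiers were found and 32 tested, and at most 2 of the 32 (6.25%) were called in any of the 4 comparisons with wt, in nrxn3 full, where 8.13% of all genes were called, and in nrxn3 tmr, where 7.32% were. MCHR2 (ENSDARG00000007842), a receptor of melanin-concentrating hormone, averaged 161 ± 28.5 normalised counts in wt (SD, n = 3) and 344 ± 38.5 in nrxn2 tmr (log2 difference 1.09, adjusted p = 0.0142), where pmch averaged 145% of wt without being called. MCHR1 (ENSDARG00000022525), another receptor of that peptide, rose from 405 ± 22.5 in wt to 564 ± 112 in nrxn3 full (adjusted p = 0.0392). Further identifiers carry the names MCHR2 (ENSDARG00000101313) and MCHR1 (ENSDARG00000104093), and their values are not given here. The somatostatin receptor sstr5 averaged 9.73 ± 3.33 in wt and rose to 28.1 in nrxn3 full (adjusted p = 0.0214) and 24.9 in nrxn3 tmr (adjusted p = 0.0433). SSTR1, a further somatostatin receptor, averaged 398 in wt and 191 in nrxn3 tmr, where it fell by 1.06 on the log2 scale (adjusted p = 7.2e-04).

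Of 59 other neuropeptide symbols 45 identifiers were found and 41 tested. The most calls with wt were in nrxn2 tmr, 1 higher and 4 lower (12.2% of 41, against 8.48% of all genes), and the list median there was -0.16 on the log2 scale against 0.00 for all genes. NUCB2 (ENSDARG00000036299), the precursor of the satiety peptide nesfatin, averaged 185 ± 26.3 in wt and rose to 319 ± 10.3 in nrxn2 tmr (log2 difference 0.78, adjusted p = 0.00372). It rose to 273 in nrxn3 tmr (adjusted p = 0.0305) and 265 in nrxn3 full (adjusted p = 0.0439). Another identifier, ENSDARG00000036291, also carries the name NUCB2, and its values are not given here. In nrxn2 tmr pyya, a peptide of the neuropeptide Y family, fell from 1751 to 1106 (adjusted p = 0.00390) and penka, an enkephalin precursor, from 3216 to 2423 (adjusted p = 0.00586). pnoca, a nociceptin precursor, fell from 723 in wt to 443 in nrxn2 full (adjusted p = 0.00289).

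Genes of peptide processing and granules (20 symbols, 18 tested) gave at most 2 calls in a comparison, in nrxn3 full (11.1% of 18, against 8.13% of all genes). pcsk1nl, an inhibitor of a convertase, fell from 40357 to 28760 in nrxn3 full (adjusted p = 0.0173) and to 29876 in nrxn2 tmr (adjusted p = 0.0316). Of 2 identifiers named SCG5, a chaperone of the convertase PCSK2, ENSDARG00000077045 averaged 1459 ± 777 in wt against 9.64 ± 14.2 in nrxn3 full (adjusted p = 0.0151) and 15.2 ± 5.61 in nrxn3 tmr (adjusted p = 0.0212). The other, ENSDARG00000032126, averaged 515 ± 439 in wt, 2044 ± 98.8 in nrxn3 full (adjusted p = 0.352) and 1999 ± 186 in nrxn3 tmr (adjusted p = 0.371), so SCG5 as a whole cannot be called lower, and the values are uncertain if the 2 share reads. Of the 35 hypothalamic transcription factor symbols 28 genes were tested and at most 2 were called in a comparison, in nrxn2 tmr (7.14%, against 8.48% of all genes). SIX3 (ENSDARG00000058008, which shares its name with ENSDARG00000054879) fell from 185 in wt to 104 in nrxn2 full (adjusted p = 0.00944). In nrxn2 tmr TBX3, a factor of the arcuate region, fell from 362 to 241 (adjusted p = 0.00899) and ISL1 from 1018 to 760.1 (adjusted p = 0.0204).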

How the data were processed

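The authors deposited 1 table of raw read counts per gene for 24 libraries (counts, not normalised). Whole brains were dissected with the eyes removed, and libraries were made with a stranded poly(A) kit. Per the submitters' processing notes and the study's methods, reads were checked with FastQC 0.11.9 and MultiQC 1.9, trimmed with Trimmomatic 0.39 and aligned and counted with STAR 2.7.11b on GRCz11, and the strand column chosen is not stated. Without it, a gene and an antisense partner may share or lose reads. Near-identical copies may do so whichever strand column was chosen.

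Groups came from the genotype labels. All 24 libraries entered the fit, and wt and 4 lines (15 libraries) are described. The other lines are not reported here. Gene names came from a table of identifiers and symbols, which matched 29201 of 37241 identifiers, and neighbours from the RefSeq annotation of GRCz12tu. Testing took the 23641 genes that reached 10 counts in 3 or more libraries, by edgeR 4.0.16 quasi-likelihood fits in R 4.3.3. These used DESeq2 1.42.0 size factors, 1 coefficient for each genotype of the series and Benjamini-Hochberg adjustment. The fit was also run on simulated counts drawn independently for each gene and library. These hold no effects shared by the genes of a library, and the outcome is not given here. Alternatives were TMM factors, the DESeq2 test, no filter, a minimum of 50 counts, a replicate block, a fit of just 6 libraries (line and wt), and leaving out each library. Likeness is the Pearson r of log2(normalised count + 1) over the 24 libraries, given for the 3 highest among named genes whose mean reached 50. Of each further list, up to 4 called genes with the lowest adjusted p were named. The members and lists were chosen with earlier results of these data known. The 95% counting intervals are exact and condition on the total reads.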

Additional observations from a re-analysis of the deposited data

Results flagged for a closer look

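The difference between full and tmr alleles of the same gene pair was past the threshold for 2 members. oxt was higher in nrxn2 full than in nrxn2 tmr by 1.47 on the log2 scale (edgeR, adjusted p = 0.0276), with no overlap of the 3 and 3 libraries. npy was higher in nrxn3 full than in nrxn3 tmr by 0.53 (edgeR, adjusted p = 0.0314), also with no overlap of the 3 and 3 libraries. The lack of overlap comes from the same libraries as the tests and adds no separate evidence. Leaving out 1 library ended the oxt call in 4 cases and the npy call in 6. With 3 libraries in each genotype, single libraries were not screened as outliers.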

How the results depend on the processing

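The main tests called 3 members in the 4 comparisons with wt and 2 between full and tmr alleles. With the replicate block the comparisons with wt gave 1 call, and with only the 6 libraries of the line and wt they gave 0 by edgeR, with 6 of 34 pairs of a member and a line at an unadjusted p under 0.05. In that fit of nrxn2 tmr, and with a minimum of 50 counts, agrp failed the filter and was not tested. Its call could be neither kept nor lost there. The DESeq2 test gave 4 calls between full and tmr alleles. The share of all genes called with the replicate block, the 6 libraries or the DESeq2 test is not given here. Whether the members moved more than other genes under these settings therefore cannot be told. Leaving out 1 library at a time gave 1 to 4 calls against wt and 1 to 3 between alleles. TMM factors and the filters left each of these counts within 1.5 times. With the replicate block oxt was no longer called in nrxn2 tmr (adjusted p = 0.0976), nor npy in nrxn3 full (0.111). The labels do not say what the replicate numbers stand for. Over 53 pairs of same-numbered libraries of different genotypes the correlation of deviations averaged -0.01 (range -0.12 to 0.13). In 1 pair it was over 0.1. A correlation over all tested genes cannot show whether single genes followed the numbers, and this was not tested. None of the called differences changed direction under any alternative, while 19 of 54 pairs of a member and a comparison changed sign somewhere, the largest of these at 0.81 on the log2 scale. Leaving out 1 library gave 1171 to 4558 genes called in nrxn2 full, 1239 to 2178 in nrxn2 tmr, 1119 to 2121 in nrxn3 full and 1145 to 1850 in nrxn3 tmr. Reads were few for hcrt and agrp. For gnrh3 they were few only in nrxn3 full (16 reads), while wt held 470 reads with a large spread between libraries (mean 176 ± 211 normalised counts, SD, n = 3).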

Other observations

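Over the 24 libraries the genes most like the members were given by r alone, as a description, since the libraries share genotypes and depth. Besides those named above, oxt was most like MYCBP2 (r = 0.77), TMX2 (r = 0.76) and prl2 (r = 0.74), the last a second prolactin gene of zebrafish that was highest in nrxn3 tmr (162 to 502 normalised counts) and at 38.8 to 123 in wt and the other 3 lines. agrp was most like kiss2 (r = 0.83), a kisspeptin gene of the hypothalamus that stood at 14.1, 24.2 and 69.8 in nrxn2 tmr and at 41.8 to 151 in wt and the other 3 lines. The next were POLR2L, a subunit of RNA polymerases (r = 0.75), listed at 0 in the 3 nrxn2 tmr libraries and at 219 to 293 in wt and the other 3 lines, and zgc:171220 (r = 0.73), at 6.07 to 10.4 against 59.9 to 129. POLR2L lies on the chromosome of agrp in GRCz12tu, with 534 protein-coding genes between them. The gene nrxn2b, which is mutated in nrxn2 tmr, lies on that chromosome too, whereas kiss2 and zgc:171220 do not. What the count of 0 for POLR2L stands for was not tested. Because kiss2, POLR2L and zgc:171220 were picked for following agrp over libraries that include nrxn2 tmr, their low levels there follow in part from the choice. avp was most like si:ch211-85n16.3 (r = 0.81), npy like ABHD16A (r = 0.75), hcrt like mast3b (r = 0.71) and pmch like si:dkey-79d12.4 (r = 0.77). SST was most like sst1.2, another somatostatin gene (r = 0.84). Between members, the closest deviations from the genotype means were those of npy and trh (r = 0.67) and of oxt and galn (r = 0.67).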
